A study of Mus musculus with 12 samples.

Results

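Biglycan (Bgn), decorin (Dcn), lumican (Lum), fibronectin (Fn1), vitronectin (Vtn), fibrillin 1 (Fbn1), fibulin 3 (Efemp1), fibulin 5 (Fbln5), osteonectin (Sparc) and thrombospondin 1 (Thbs1) were followed as 10 genes for proteins of the extracellular matrix other than collagen. They were picked by gene name from a table of 54532 genes. The livers came from male C57BL/6J mice, 3 per group, that were 5 weeks old when the diets began and were fed for 26 weeks. ND-fed mice received a normal diet, control mice a high-fat diet, HYA-treated mice the high-fat diet with 1% HYA, and LA-treated mice the high-fat diet with 1% LA (linoleic acid). HYA is a hydroxylated fatty acid that lactic acid bacteria of the gut make from LA. The control, HYA and LA groups thus shared the high-fat diet and differed in the added fatty acid, and no group received HYA or LA on the normal diet.

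Small leucine-rich proteoglycans such as biglycan, decorin and lumican bind collagen fibrils and set their spacing, and decorin and biglycan also bind growth factors of the TGF-β family. Fibronectin and vitronectin are adhesive glycoproteins that hepatocytes secrete into plasma and that cells grip through integrins, whereas fibrillin 1 and the fibulins belong to microfibrils and elastic fibres. SPARC and thrombospondin 1 are matricellular proteins, which act on cells and matrix assembly rather than as scaffold. In the liver, stellate cells and portal fibroblasts are known as the main makers of the fibril-associated proteins and lay down more of them in fibrosis.

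Levels are given as FPKM, fragments scaled to the length of the gene and the size of the library, so that genes of different length can be compared. Libraries held 17169064 to 25220880 fragments on genes, and mice of 1 group correlated at 0.983 to 0.990 across genes. All 5 hepatocyte markers examined, Alb among them, were expressed, with a summed level of at least 23140 FPKM in every mouse. The FPKM columns summed to at least 407652 in ND-fed mice and to at most 393109 in the mice on the high-fat diet. Rescaling every mouse to the same sum (TPM) therefore moved the median difference of all tested genes between control and ND-fed mice from -0.04 to 0.17 on the log2 scale, and differences of that size depend on the scale chosen. Differences were tested with limma on log2(FPKM + 1) over the 11083 genes whose mean reached 1 FPKM, and p-values were adjusted by Benjamini and Hochberg over all of them. Of the 10 genes, 8 passed this filter, and Fbn1 (mean 0.805 FPKM) and Thbs1 (mean 0.946 FPKM) did not. For these 2 genes the same fit without a filter is given, together with limma's voom on recovered fragments, since a log2 difference of low FPKM values with 1 added understates the fold. It also understates the fold of other genes at low levels, such as Fbln5, which passed the filter with a mean of 1.10 FPKM. The labels do not say whether mice of a group shared a cage, and p-values measure the spread between these mice.

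Levels differed widely between the 10 genes. Over the 12 mice Vtn had a mean of 760 FPKM and ranked 61 among all genes, Fn1 had 149 FPKM and ranked 296, and both are products of hepatocytes. Dcn (32.4 FPKM), Sparc (25.1 FPKM) and Bgn (22.2 FPKM) came next, followed by Efemp1 (5.26 FPKM) and Lum (5.09 FPKM) and, near 1 FPKM, by Fbln5 (1.10), Thbs1 and Fbn1. The 8 genes other than Fn1 and Vtn together made up 4.20% to 4.74% of the summed FPKM of the 10 genes in ND-fed mice. This share was 8.57% to 9.76% after HYA, 10.9% to 14.7% in control mice and 12.0% to 13.6% after LA, so that HYA-treated mice lay apart from ND-fed mice below and from the other high-fat mice above. It does not depend on how libraries are scaled. In a bulk liver sample, fewer cells of a type and less RNA per cell cannot be told apart.

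**Figure D1:**
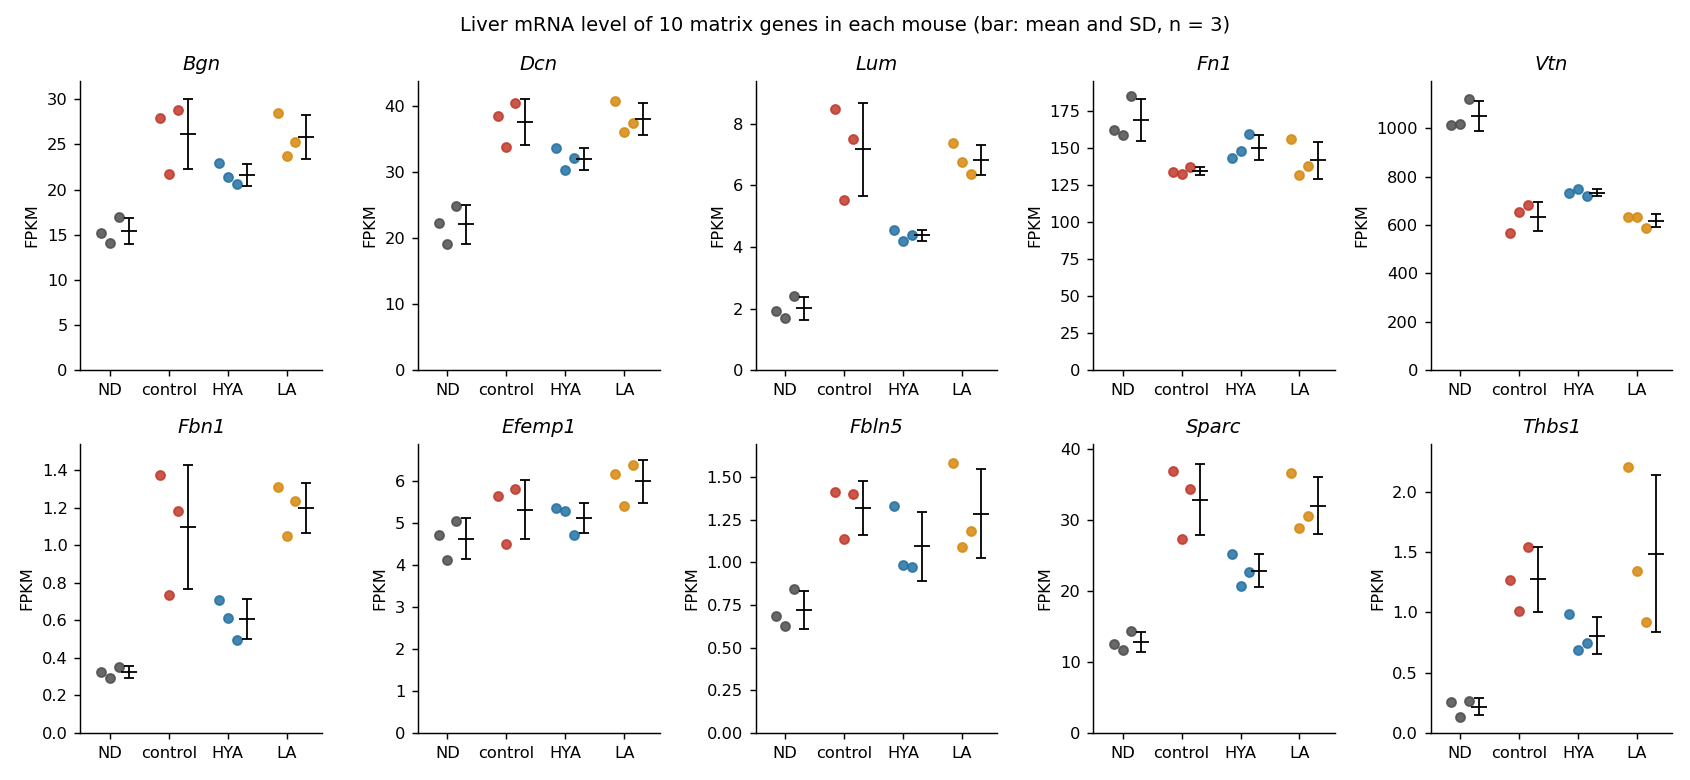
FPKM (y axis, from 0) of each gene in each of the 12 mice by diet group, with the group mean and SD (n = 3) as a bar beside the points. Lum, Sparc, Bgn and Dcn were lowest in ND-fed mice and their HYA mean was below the control mean, whereas Vtn was highest in ND-fed mice (1016 to 1122 FPKM).

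RefSeq promoter windows on GRCm38.p6, each running from 250 bases before to 50 bases after the start that RefSeq gives, were matched by symbol for 6 of the 10 genes, not for Dcn, Lum, Fn1 and Thbs1. They are shown for Bgn, Sparc and Fbn1, 3 genes whose mRNA the control mice had more of than the ND-fed mice, and for Vtn, of which they had less, so that the letters of the opposite patterns can be read side by side. Capitals mark matches on either strand to 6 short motifs. These were TATAAA for the basal promoter box, TGANTCA for AP-1 factors, GGAATG for TEAD factors, CAGACA for SMAD proteins, GTTAAT for the hepatocyte factor HNF1, and CCAAT for the NF-Y complex.
Bgn (chrX:73483351-73483650, + strand): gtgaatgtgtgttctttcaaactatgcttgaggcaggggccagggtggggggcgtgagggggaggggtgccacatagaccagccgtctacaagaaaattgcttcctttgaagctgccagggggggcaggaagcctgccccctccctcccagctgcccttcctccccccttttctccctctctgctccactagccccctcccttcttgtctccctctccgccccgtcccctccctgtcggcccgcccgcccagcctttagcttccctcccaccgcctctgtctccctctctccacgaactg
Sparc (chr11:55420031-55420330, - strand): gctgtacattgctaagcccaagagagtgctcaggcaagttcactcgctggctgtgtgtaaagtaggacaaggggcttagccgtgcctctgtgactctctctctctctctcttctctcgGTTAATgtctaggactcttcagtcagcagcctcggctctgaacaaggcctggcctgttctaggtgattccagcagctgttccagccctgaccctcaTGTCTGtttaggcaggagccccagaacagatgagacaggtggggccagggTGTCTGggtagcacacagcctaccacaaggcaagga
Fbn1 (chr2:125506389-125506688, - strand): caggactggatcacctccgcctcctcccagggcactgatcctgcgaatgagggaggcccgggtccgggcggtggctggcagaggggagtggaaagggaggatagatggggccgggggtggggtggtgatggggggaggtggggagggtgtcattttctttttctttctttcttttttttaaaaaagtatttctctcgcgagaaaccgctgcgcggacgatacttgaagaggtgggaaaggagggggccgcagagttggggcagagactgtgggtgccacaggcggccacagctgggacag
Vtn (chr11:78498870-78499169, + strand): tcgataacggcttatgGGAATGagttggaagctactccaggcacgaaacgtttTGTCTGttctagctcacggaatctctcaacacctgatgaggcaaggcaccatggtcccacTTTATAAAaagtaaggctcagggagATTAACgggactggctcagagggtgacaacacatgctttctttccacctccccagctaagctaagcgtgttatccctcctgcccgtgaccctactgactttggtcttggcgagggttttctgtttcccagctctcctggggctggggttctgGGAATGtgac
The RefSeq starts of Sparc, Fbn1 and, only just, Vtn lie inside the gene spans given here from the deposited table. The windows of these genes are therefore not at the outermost end of the span. The Bgn and Fbn1 windows held none of the 6 motifs, and their GC contents of 63.7% and 60.3% lay above the median of 52.7% over all 32851 windows of this length. Sparc held CAGACA on the opposite strand at bases -36 and 15 counted from the start, and GTTAAT at base -132. The Vtn window held TATAAA on both strands in overlapping copies at bases -137 and -135, GTTAAT on the opposite strand at base -112, CAGACA on the opposite strand at base -197, and GGAATG at bases -234 and 41. TGANTCA was found in the Efemp1 window alone among the 6 genes, at base -154. Of all windows, 13.6% held TATAAA, 7.81% TGANTCA, 14.7% GGAATG, 21% CAGACA, 7.1% GTTAAT and 37.4% CCAAT, so matches of this kind are common and mark letters only. No motif was shared by the windows of Bgn, Sparc and Fbn1.

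Among the small leucine-rich proteoglycans, all 3 genes rose in control over ND-fed mice, and Lum did so by the largest factor. Bgn (ENSMUSG00000031375, chrX:73483602-73495933, + strand, GRCm38) encodes biglycan, a class I member of the family. Its level was 15.2, 14.1 and 16.9 FPKM in ND-fed mice 1 to 3 and 27.9, 21.7 and 28.8 FPKM in control mice 1 to 3, with 22.9, 21.4 and 20.6 FPKM in HYA-treated and 28.5, 23.7 and 25.3 FPKM in LA-treated mice. Every mouse on the high-fat diet was above every ND-fed mouse. The control mean of Bgn was 1.70-fold the ND mean (log2 difference 0.72, SE 0.11, limma adjusted p = 0.000554).

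Dcn (ENSMUSG00000019929, chr10:97479609-97518143, + strand) encodes decorin, named for the way it decorates collagen fibrils. Its level was 22.3, 19.0 and 24.8 FPKM in ND-fed mice, 38.5, 33.7 and 40.4 FPKM in control mice, 33.7, 30.3 and 32.1 FPKM in HYA-treated mice and 40.7, 36.0 and 37.5 FPKM in LA-treated mice. The ND range lay apart from all 3 high-fat ranges, and the HYA range ended just below the lowest control mouse. The 1.70-fold rise in control over ND-fed mice (log2 difference 0.74, SE 0.10, limma adjusted p = 0.000225) was the same factor as that of Bgn.

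Lum (ENSMUSG00000036446, chr10:97565128-97572703, + strand) encodes lumican, a class II member that limits fibril thickness. It lies 47 kb beyond Dcn in a cluster of related genes on chromosome 10, and the 2 other relatives there, Kera and Epyc, had 0 fragments in all 12 mice. Lum stood at 1.91, 1.70 and 2.41 FPKM in ND-fed mice, 8.47, 5.53 and 7.51 FPKM in control mice, 4.55, 4.19 and 4.38 FPKM in HYA-treated mice and 7.36, 6.74 and 6.38 FPKM in LA-treated mice. The HYA-treated mice thus formed a narrow band above all ND-fed mice and below all control and LA-treated mice. Against ND-fed mice, Lum was 3.58-fold higher in control mice (log2 difference 1.43, SE 0.13, limma adjusted p = 1.97e-05) and 2.18-fold higher in HYA-treated mice (log2 difference 0.85, SE 0.13, limma adjusted p = 0.00136).

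Both matricellular genes had a larger ratio of control to ND mean than Bgn and Dcn. Sparc (ENSMUSG00000018593, chr11:55394500-55423183, - strand) encodes a collagen-binding glycoprotein that takes part in collagen processing. Its level was 12.5, 11.6 and 14.3 FPKM in ND-fed mice, 36.9, 27.3 and 34.3 FPKM in control mice, 25.2, 20.6 and 22.6 FPKM in HYA-treated mice and 36.6, 28.9 and 30.5 FPKM in LA-treated mice. As for Lum, the HYA range lay between the ND range and the control range without touching either. The control mean of Sparc was 2.57-fold the ND mean (log2 difference 1.29, SE 0.13, limma adjusted p = 3.9e-05).

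Thbs1 (ENSMUSG00000040152, chr2:118111876-118127133, + strand) encodes thrombospondin 1, which can activate latent TGF-β and binds CD36 and CD47. It was low throughout, at 0.253, 0.135 and 0.266 FPKM in ND-fed mice, where only 13 to 29 fragments per mouse fell on it. The level was 1.26, 1.01 and 1.54 FPKM in control mice, 0.985, 0.690 and 0.746 FPKM in HYA-treated mice and 2.20, 1.34 and 0.916 FPKM in LA-treated mice. All mice on the high-fat diet were above all ND-fed mice, and LA-treated mice spread the widest. The control mean of Thbs1 was 5.84-fold the ND mean, with a limma log2 difference of 0.89 on the scale with 1 added (SE 0.17, adjusted p = 0.00571 without a filter), and a voom log2 difference of 2.54 (adjusted p = 0.00174).

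The elastic fibre genes did not move alike. Fbn1 (ENSMUSG00000027204, chr2:125300594-125507993, - strand), which encodes the backbone of microfibrils, was at 0.324, 0.291 and 0.353 FPKM in ND-fed mice, 1.37, 0.733 and 1.18 FPKM in control mice, 0.710, 0.609 and 0.497 FPKM in HYA-treated mice and 1.31, 1.05 and 1.24 FPKM in LA-treated mice. All 3 HYA-treated mice were below all control and LA-treated mice and above all ND-fed mice. The control mean of Fbn1 was 3.40-fold the ND mean (limma log2 difference 0.65, SE 0.11, adjusted p = 0.00324 without a filter). The voom log2 difference was 1.71 (95% interval 1.10 to 2.32, adjusted p = 0.000592).

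Fbln5 (ENSMUSG00000021186, chr12:101746565-101819055, - strand), needed for elastic fibre assembly, stood at 0.684, 0.629 and 0.845 FPKM in ND-fed mice, 1.41, 1.14 and 1.40 FPKM in control mice, 1.33, 0.982 and 0.972 FPKM in HYA-treated mice and 1.58, 1.09 and 1.18 FPKM in LA-treated mice. Mice on the high-fat diet were all above the ND-fed mice, and the 3 high-fat groups overlapped. The control mean was 1.83-fold the ND mean (log2 difference 0.43, SE 0.10, limma adjusted p = 0.00887), and the voom log2 difference was 0.87. Efemp1 (ENSMUSG00000020467, chr11:28853204-28926743, + strand), which encodes fibulin 3 of the same family, had 4.72, 4.11 and 5.05 FPKM in ND-fed mice, 5.64, 4.50 and 5.81 FPKM in control mice, 5.37, 5.28 and 4.71 FPKM in HYA-treated mice and 6.17, 5.41 and 6.39 FPKM in LA-treated mice. Control and ND ranges of Efemp1 overlapped, and their difference did not pass the test (log2 difference 0.16, 95% interval -0.05 to 0.38, limma adjusted p = 0.217). On the TPM scale it did (log2 difference 0.40, adjusted p = 0.0211). LA-treated mice were all above ND-fed mice for Efemp1 (log2 difference 0.31, SE 0.10, limma adjusted p = 0.0312). That call was lost with voom (adjusted p = 0.0512), without a filter, and without ND mouse 1 or 2 or LA mouse 1 or 3, where adjusted p reached 0.114.

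The adhesive glycoproteins went the other way. Vtn (ENSMUSG00000017344, chr11:78499091-78502324, + strand) encodes vitronectin, a plasma protein that cells bind through integrins. Its level was 1016, 1018 and 1122 FPKM in ND-fed mice, 569, 653 and 684 FPKM in control mice, 733, 749 and 719 FPKM in HYA-treated mice and 633, 635 and 587 FPKM in LA-treated mice. HYA-treated mice were above every control and LA-treated mouse and below every ND-fed mouse. Vtn was at 0.604 of the ND level in control mice (log2 difference -0.73, SE 0.07, limma adjusted p = 5.02e-05) and at 0.697 of it in HYA-treated mice (log2 difference -0.52, SE 0.07, limma adjusted p = 0.00102). Relative to the median gene, which was at -0.04 for control against ND-fed mice, Vtn fell on the FPKM scale, and on the TPM scale its difference was -0.49 with the median gene at 0.17.

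Fn1 (ENSMUSG00000026193, chr1:71585520-71653200, - strand) encodes fibronectin, made in a plasma form by hepatocytes and in cellular forms by other cells, and gene-level values do not separate these forms. Its level was 162, 159 and 185 FPKM in ND-fed mice, 134, 133 and 138 FPKM in control mice, 143, 148 and 160 FPKM in HYA-treated mice and 156, 132 and 138 FPKM in LA-treated mice. All control mice were below all ND-fed mice, and the control level was 0.799 of the ND level (log2 difference -0.32, SE 0.08, limma adjusted p = 0.00894). With TPM the difference was -0.08 (adjusted p = 0.398), so that the call for Fn1 rests on the scale used. Fn1 shares 364 bases with Apol7d on the opposite strand (mean 0.750 FPKM), Fbn1 overlaps Gm9913 (mean 0.0101 FPKM), and Thbs1 overlaps Gm29233, which had 0 in every mouse. Whether counting used strand is not given in the sources used here.

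Between control and ND-fed mice, 7 of the 8 tested genes passed the test, against 35.3% of all tested genes. Bgn, Dcn, Lum, Fbln5 and Sparc were higher, beside 16.2% of all genes in that direction, and Fn1 and Vtn were lower, beside 19.1%. Ranges of the 2 groups did not overlap for these 7, beside 45.6% of all tested genes. Lum and Sparc also had a log2 difference above 1 on the scale with 1 added, as did 2.25% of genes that were called higher. Genes near 1 FPKM can hardly reach that threshold. With voom the log2 differences were 2.54 for Thbs1, 1.82 for Lum, 1.71 for Fbn1 and 1.35 for Sparc. Fbn1 and Thbs1 were called higher in the fit without a filter, as were 8.69% of 26045 genes, and with voom, as were 17.6% of 14353 genes. In LA-treated against ND-fed mice all 8 tested genes passed, where 31.1% of all genes did, with Lum 3.41-fold, Sparc 2.50-fold, Dcn 1.72-fold and Bgn 1.68-fold above the ND level and Vtn at 0.588 of it. The Fn1 call in that comparison (log2 difference -0.25, limma adjusted p = 0.0318) was lost with TPM (adjusted p = 0.863), without a filter, in the 2-group fit, and without ND mouse 3 or LA mouse 2 or 3, and that of Fbln5 (adjusted p = 0.0132) was lost without LA mouse 1 (adjusted p = 0.0547). In HYA-treated against ND-fed mice 5 of the 8 passed, where 16.6% of all genes did. These were Bgn, Dcn, Lum and Sparc, which were higher (8.72% of all genes), and Vtn, which was lower (7.85%). Without ND mouse 2 or HYA mouse 1 the Bgn call (log2 difference 0.47, limma adjusted p = 0.0146) was lost, with adjusted p up to 0.0609. Fbln5 (log2 difference 0.28, limma adjusted p = 0.0910) and Fn1 (log2 difference -0.16, 95% interval -0.33 to 0.01, limma adjusted p = 0.172) did not pass. Thbs1 passed with voom (log2 difference 1.89, adjusted p = 0.0260), where 7.78% of genes were called higher, but not with limma on log2(FPKM + 1) without a filter (adjusted p = 0.0893). Without a filter it also passed with 0.1 added in place of 1, with TPM and in the 2-group fit. It did not pass when any 1 mouse of the 2 groups was left out. These 3 comparisons share the ND-fed mice.

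**Figure D2:**
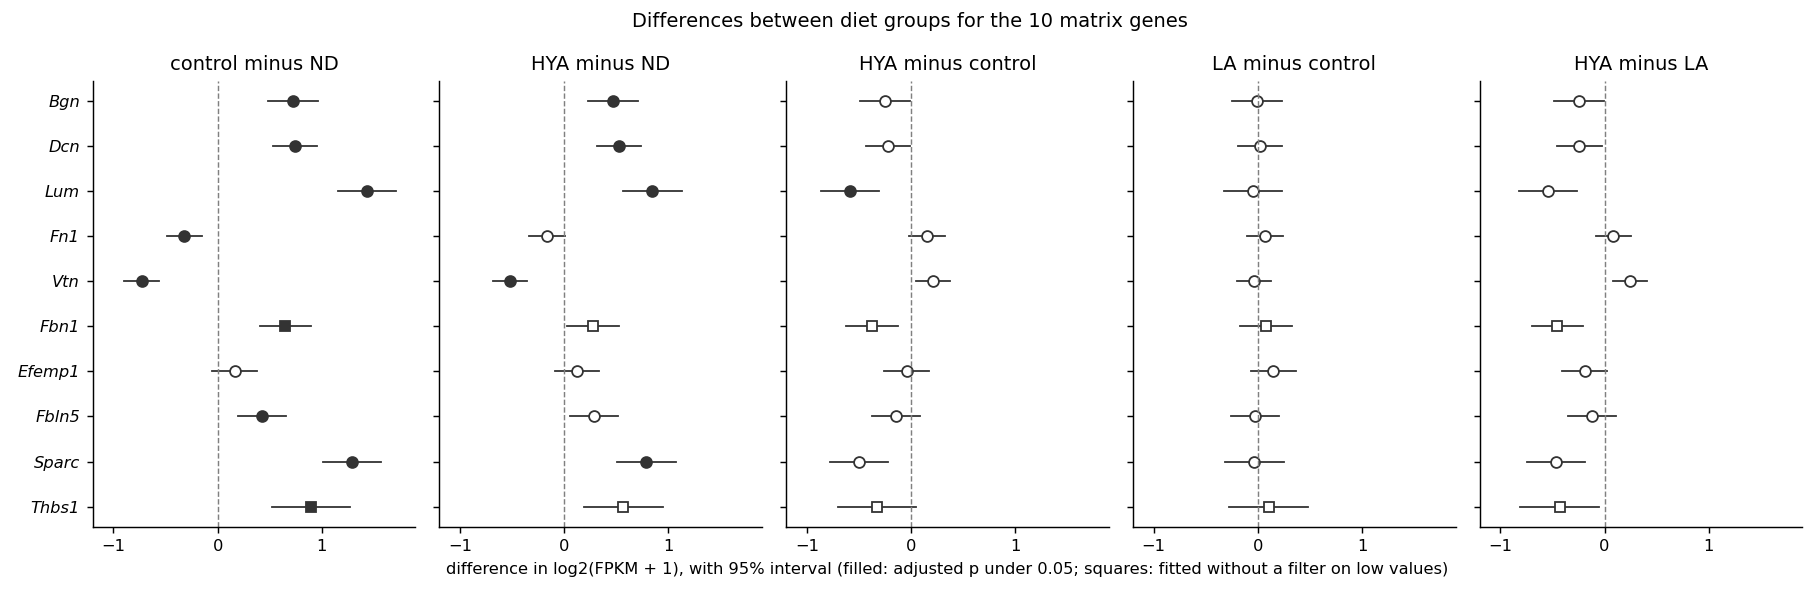
Difference in log2(FPKM + 1) between 2 diet groups (x axis) for each gene (y axis), with its 95% interval from limma, in 5 comparisons; filled symbols had an adjusted p under 0.05, and squares are the 2 genes fitted without a filter. In control minus ND, 5 tested genes were called higher and Fn1 and Vtn lower, whereas in HYA minus control only Lum was called and in LA minus control none was.

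HYA was compared with the unsupplemented high-fat diet to ask whether it lowers what the high-fat diet raised. The control mice also enter the comparison with ND-fed mice, there with the opposite sign. Opposite signs in the 2 comparisons are therefore partly built in, and a reversal apart from this was not tested. Lum was at 0.610 of the control level in HYA-treated mice (log2 difference -0.59, SE 0.13, limma adjusted p = 0.0412) and was the single call among the 8 tested genes, beside 2.8% of all tested genes in either direction and 1.23% that were lower. Sparc was at 0.695 of the control level (log2 difference -0.50, 95% interval -0.78 to -0.22, limma adjusted p = 0.0631). It passed with voom (adjusted p = 0.0389), where 1.84% of genes were called lower, and with TPM (adjusted p = 0.0373), where 4.48% of genes passed. Bgn stood at 0.827 (log2 difference -0.25, limma adjusted p = 0.240) and Dcn at 0.853 of the control level (log2 difference -0.22, limma adjusted p = 0.253). Fbn1 stood at 0.553 of it (voom log2 difference -0.84, 95% interval -1.32 to -0.36, adjusted p = 0.0557). For Thbs1 the ratio of means was 0.635 (voom log2 difference -0.65, 95% interval -1.31 to 0.01, adjusted p = 0.266). Vtn was 1.15-fold (log2 difference 0.21, 95% interval 0.05 to 0.38, limma adjusted p = 0.158) and Fn1 1.12-fold the control level (log2 difference 0.16, 95% interval -0.02 to 0.33, limma adjusted p = 0.316). Efemp1 had a smaller log2 difference (-0.04, 95% interval -0.26 to 0.17). Fbln5 stood at 0.830 of the control level, a ratio near that of Bgn. Its log2 difference was -0.15 on the scale with 1 added (95% interval -0.38 to 0.08, limma adjusted p = 0.499) and -0.28 with voom. Values of the 2 groups did not overlap for Dcn, Lum, Fn1, Vtn and Sparc, that is 5 of the 8 tested genes, beside 21.6% of all tested genes.

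The Lum call was also lost without a filter (limma adjusted p = 0.0877) and in a fit of the 2 groups alone (0.151), and the calls hung on single mice. Control mouse 2 had the lowest level of the control mice for all 8 genes other than Fn1 and Vtn, and its summed level of 10 stellate cell markers was also the lowest, at 69.6 FPKM against 88.9 and 79.4 FPKM. Without control mouse 2, Lum (limma adjusted p = 0.00762), Sparc (0.0184) and Bgn (0.0433) passed, as did Fbn1 in the fit without a filter (0.0257), and 5.89% of all tested genes passed. Leaving out control mouse 1 or 3 or any HYA-treated mouse removed the Lum call, with adjusted p up to 0.161, and none of the 10 genes passed then. Calls among all 11083 tested genes fell too, from 310 with all mice to 29 and 80 without control mouse 1 and 3. They were 84, 0 and 59 without HYA mouse 1, 2 and 3, and 0 in the 2-group fit. The log2 difference of Lum stayed between -0.77 and -0.47 under every setting tried, and that of Sparc between -0.64 and -0.41.

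LA, the parent fatty acid, was given at the same dose for the same time. None of the 10 genes passed the test between LA-treated and control mice with limma, and 0 of the 11083 genes (0%) did, of which 294 (2.65%) had an unadjusted p under 0.05; voom made no call either. The ranges of the 2 groups overlapped for all 10 genes. The intervals were narrow for several of them: the log2 difference was 0.02 for Dcn (95% interval -0.19 to 0.23), -0.01 for Bgn (-0.25 to 0.23), -0.04 for Vtn (-0.20 to 0.13), -0.05 for Lum (-0.33 to 0.23) and -0.03 for Sparc (-0.31 to 0.25). Thbs1 had the widest voom interval, from -0.43 to 0.72.

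HYA and LA differ by the hydroxyl group that HYA carries in place of a double bond of LA. In HYA-treated mice Lum was at 0.641 of the level of LA-treated mice (log2 difference -0.54, 95% interval -0.82 to -0.26, limma adjusted p = 0.0726) and Sparc at 0.713 of it (log2 difference -0.47, 95% interval -0.75 to -0.19, limma adjusted p = 0.102). Vtn was 1.19-fold as high (log2 difference 0.25, 95% interval 0.08 to 0.41, limma adjusted p = 0.126). None of the 8 tested genes passed, where 0.487% of all genes did. Bgn (log2 difference -0.24, 95% interval -0.48 to -0.0029) and Dcn (-0.24, 95% interval -0.46 to -0.03) were among those that did not pass. Fbn1 was at 0.506 of the LA level and passed with voom (log2 difference -1.01, 95% interval -1.48 to -0.54, adjusted p = 0.0420), where 0.78% of genes were called lower, but not with limma without a filter. The comparisons of HYA with control and with LA share the HYA-treated mice.

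Ratios within a mouse are free of library scaling and are given as a description. Bgn over Dcn overlapped between all groups, at 0.701 ± 0.0348 (SD, n = 3) in ND-fed mice, 0.694 ± 0.0434 in control mice, 0.676 ± 0.0324 after HYA and 0.678 ± 0.0217 after LA. Lum over Dcn was 0.0854, 0.0891 and 0.0970 in ND-fed mice, 0.220, 0.164 and 0.186 in control mice, 0.135, 0.138 and 0.137 in HYA-treated mice and 0.181, 0.187 and 0.170 in LA-treated mice. The HYA values were nearly equal and fell between the ND-fed mice and all other mice. Sparc over Dcn was 0.558 to 0.609 in ND-fed mice, 0.680 to 0.749 after HYA, 0.809 to 0.959 in control mice and 0.802 to 0.899 after LA, so the HYA values again lay in between. Fn1 over Vtn was 0.160 ± 0.00437 in ND-fed mice, 0.213 ± 0.0196 in control mice, 0.205 ± 0.0145 after HYA and 0.230 ± 0.0198 after LA, and the HYA range of 0.196 to 0.222 overlapped the control range of 0.201 to 0.236. Vtn over Alb was 0.0360 ± 0.00298 in ND-fed mice, 0.0310 ± 0.00154 in control mice, 0.0299 ± 0.000565 after HYA and 0.0288 ± 0.000908 after LA.

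**Figure D3:**
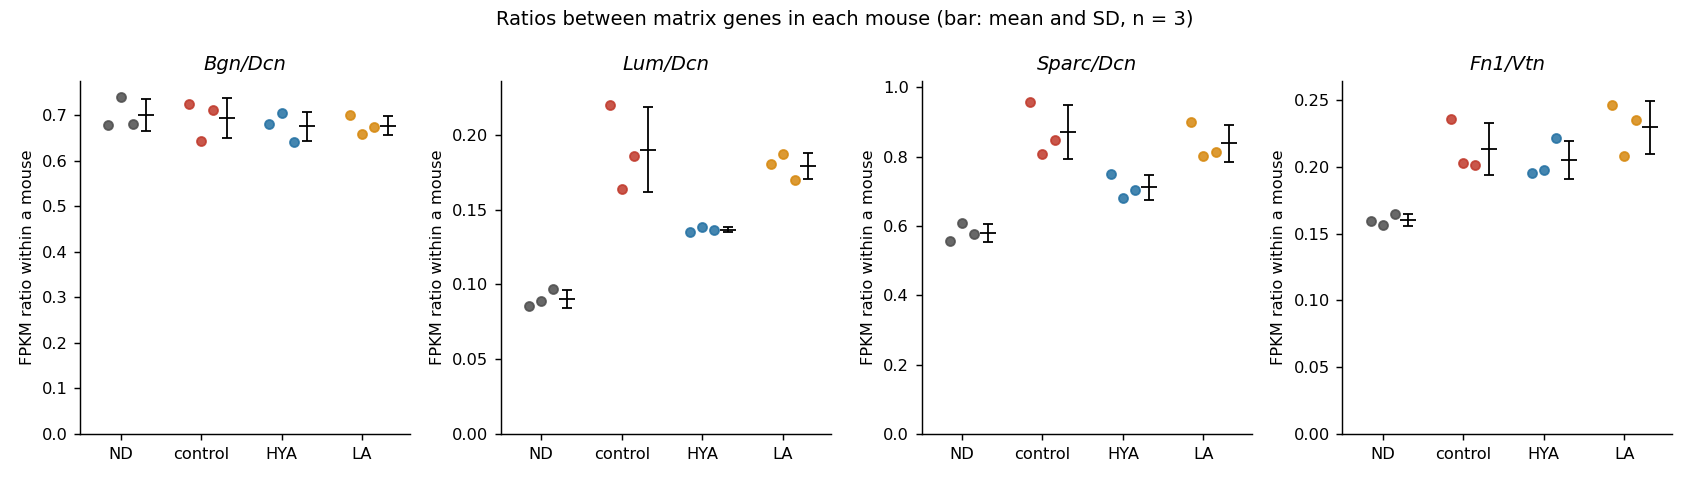
Ratio of 2 genes' FPKM within each mouse (y axis, from 0) by diet group, with the group mean and SD (n = 3) as a bar beside the points. Bgn/Dcn lay near 0.7 in every group, while Lum/Dcn was 0.135 to 0.138 in HYA-treated mice, between the ND-fed mice and the control and LA-treated mice.

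Across the 12 mice the 8 genes other than Fn1 and Vtn varied together, with Pearson's r of log2(FPKM + 1) from 0.715 (Efemp1 with Thbs1) to 0.993 (Lum with Sparc) over 28 pairs. Vtn ran against all 8 (r from -0.942 to -0.633). After the group means were subtracted, so that only differences between mice of 1 group remained, the 28 pairs still had r from 0.349 to 0.921 with a median of 0.799, the highest for Bgn with Sparc. Vtn then had r from -0.308 to 0.357 with them, and Fn1 from 0.181 to 0.651. In each group of ND-fed and control mice the same mouse was lowest for all 8 genes, namely ND mouse 2 and control mouse 2, and ND mouse 3 and HYA mouse 1 were highest for all 8 in their groups. These correlations share libraries, depth and group structure and are given as a description.

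**Figure D4:**
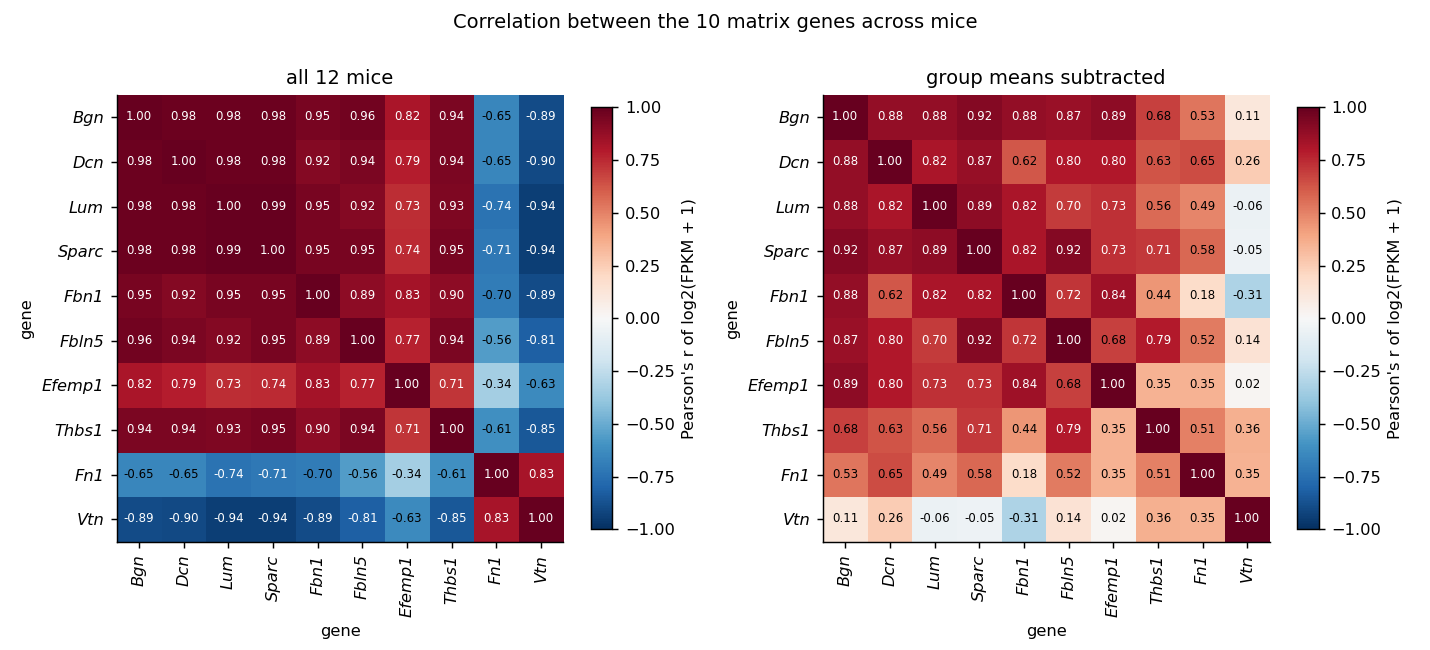
Pearson's r of log2(FPKM + 1) between each pair of the 10 genes (both axes) over the 12 mice, on the left as measured and on the right with group means subtracted; red is positive and blue negative. The 8 genes other than Fn1 and Vtn formed a positive block in both (r at least 0.715 on the left and 0.349 on the right), and r of Vtn with them ran from -0.942 to -0.633 on the left and from -0.308 to 0.357 on the right.

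For each gene the most similar tested genes over the 12 mice were named by Pearson's r. Bgn was closest to Adamts2 (r = 0.992), a procollagen N-proteinase, and Col4a1 (0.991), a basement membrane collagen chain. Dcn was closest to Plvap (0.991), a protein of endothelial diaphragms, and Sod3 (0.987), the extracellular superoxide dismutase. Lum (0.994) and Sparc (0.997) shared Anxa5 as their closest gene, followed by Col3a1 for Lum (0.992) and Sod3 for Sparc (0.995). Fbn1 was closest to Col16a1 (0.980) and Scd2 (0.979), Fbln5 to S1pr2 and Pcolce (0.974), and Thbs1 to Colec11 (0.976) and Atf3 (0.974). Vtn was closest to Serpinc1 (0.993), the gene of plasma antithrombin, and Ninj1 (0.992). Fn1 had weaker best matches, Cdh2 (0.928) and F12 (0.926), as did Efemp1 with Impdh1 (0.914). With group means subtracted, Serpinc1 (0.985) and Plg (0.971) led for Vtn, Col4a2 led for Bgn and for Fbn1 (both 0.956), Anxa5 (0.956) and Col3a1 (0.952) led for Sparc, and Prelp (0.951), another small leucine-rich proteoglycan, was second for Dcn after Tex10 (0.976). For Fbln5, Rell1 and Col14a1 (both 0.951) were then closest, and for Lum Adgra2 (0.950). Faap20 (0.963) led for Efemp1, Bace1 (0.940) for Thbs1 and Serpina3n (0.937) for Fn1, and Ptpn23 (0.953) was second for Bgn. Each match was picked for having the highest r among all tested genes over only 12 mice. High values are thus partly built in by the choice, also with group means subtracted, and no r was tested.

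Other glycoproteins and proteoglycans of the matrix were set beside the 10 genes as a list of 87 genes, of which 34 passed the filter and 9 were at 0 in all mice. In control against ND-fed mice 23 of the 34 rose and 1 fell, beside 16.2% higher and 19.1% lower among all tested genes, and the median log2 difference was 0.58, against -0.04 for all tested genes. Spp1, which encodes osteopontin, rose from 21.0 ± 4.42 (SD, n = 3) to 118 ± 46.0 FPKM (log2 difference 2.38, limma adjusted p = 0.000115). Nid1, a basement membrane linker, rose from 3.07 ± 0.317 to 10.1 ± 2.41 FPKM (log2 difference 1.42, limma adjusted p = 0.000101). Dpt, which encodes dermatopontin, a decorin-binding protein, rose from 2.09 ± 0.671 to 6.70 ± 0.628 FPKM (log2 difference 1.34, limma adjusted p = 9.78e-05), and Postn (periostin) rose from 0.972 ± 0.229 to 2.94 ± 0.557 FPKM (log2 difference 0.99, limma adjusted p = 0.000159). Hapln4, a hyaluronan link protein gene, was the 1 that fell (log2 difference -0.45, limma adjusted p = 0.0298). By subgroup, 9 of 10 tested matricellular genes, 4 of 5 elastic fibre and microfibril genes, 5 of 9 adhesive and other genes, 4 of 6 large or basement membrane proteoglycan genes and 1 of 4 small leucine-rich proteoglycan genes rose. That 1 was Prelp, from 14.7 to 24.7 FPKM by group means (log2 difference 0.72, limma adjusted p = 0.00389), whereas Omd (0.28), Podn (0.03) and Tsku (-0.41, from 46.2 to 32.1 FPKM) did not pass.

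In HYA-treated against control mice 2 of the 34 fell and none rose, beside 1.23% of all tested genes that fell, and the median log2 difference was -0.20, against 0.02 for all genes. These were Spp1, which stood at 42.5 ± 7.29 FPKM (log2 difference -1.39, SE 0.28, limma adjusted p = 0.0347), and Postn, at 1.72 ± 0.158 FPKM (log2 difference -0.53, SE 0.12, limma adjusted p = 0.0487). Both lost the call without control mouse 1 or 3 or without any 1 HYA-treated mouse, and without control mouse 2 the list had 4 calls. Calls among all 11083 tested genes fell from 310 to between 0 and 84 in the former fits and rose to 653 in the latter. In HYA-treated against LA-treated mice none of the 34 passed with limma (median -0.16). LA-treated mice had 102 ± 25.3 FPKM of Spp1 and 3.07 ± 0.464 FPKM of Postn, near the control levels.

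**Figure D5:**
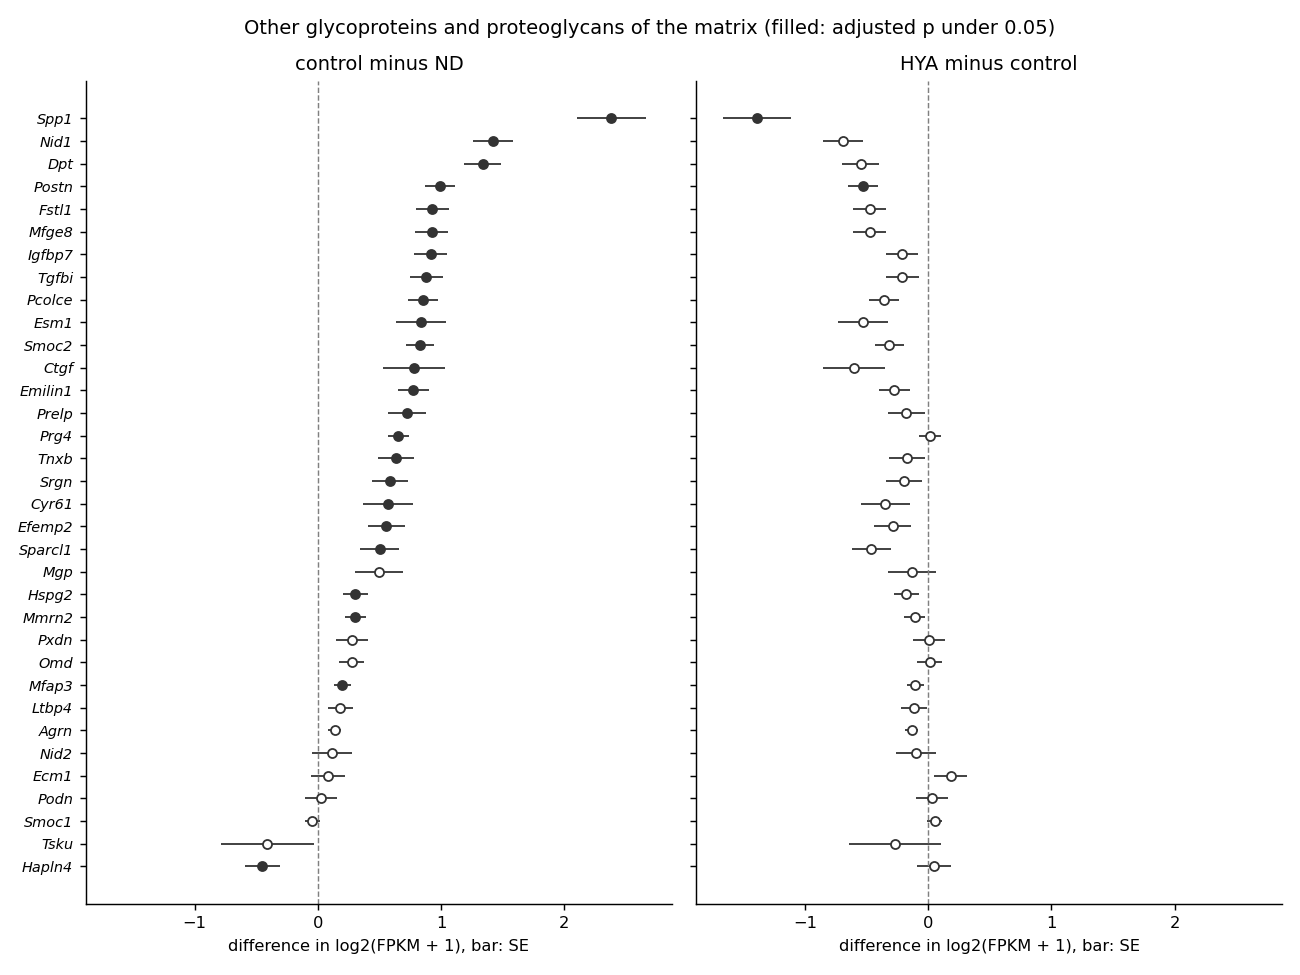
Difference in log2(FPKM + 1) (x axis, bar: SE from limma) of the 34 tested genes of the wider matrix list (y axis), for control minus ND on the left and HYA minus control on the right; filled points had an adjusted p under 0.05. On the left 23 genes were called higher and 1 lower, and on the right Spp1 (-1.39) and Postn (-0.53) were the 2 calls.

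Enzymes that build and break down the glycosaminoglycan chains carried by biglycan and decorin formed a list of 46 genes, of which 34 were tested. In control against ND-fed mice 9 of the 34 rose and 2 fell, beside 16.2% higher and 19.1% lower among all tested genes, with a median of 0.09. Among the genes for breakdown, the lysosomal glycosidase genes Hexa (30.1 to 48.7 FPKM, log2 difference 0.68, limma adjusted p = 0.000225) and Gusb, the β-glucuronidase gene (6.95 to 10.2 FPKM, log2 difference 0.49, limma adjusted p = 6.67e-05), rose, and the hyaluronidase gene Hyal1 fell (log2 difference -0.31, limma adjusted p = 0.0185). Chpf, a chondroitin polymerizing factor gene, rose from 0.838 to 1.64 FPKM (log2 difference 0.52, limma adjusted p = 0.00108), and 4 of the 10 tested chondroitin and dermatan genes rose in all. Ndst1, which acts on heparan sulfate, fell from 44.3 to 34.5 FPKM (log2 difference -0.35, limma adjusted p = 0.000986), and none of the 4 genes for the linker between chain and core protein passed. In HYA-treated against control mice 2 of the 34 fell, beside 1.23% of all tested genes: Gusb to 7.72 FPKM (log2 difference -0.36, SE 0.05, limma adjusted p = 0.0168) and Galns, a lysosomal sulfatase gene, from 3.95 to 2.10 FPKM (log2 difference -0.68, SE 0.15, limma adjusted p = 0.0412). Without control mouse 1 or 3 or HYA mouse 1 the list had 1 call, and without HYA mouse 2 it had 0. Among all 11083 tested genes 29, 80, 84 and 0 were called in those fits.

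Receptors and partners of the 10 proteins moved in both directions, with 13 of 23 tested genes called higher and 6 lower in the comparison of control with ND-fed mice, beside 16.2% and 19.1% of all tested genes, and a median of 0.34. Cd36, a thrombospondin 1 receptor and fatty acid transporter, rose from 26.7 to 88.3 FPKM (log2 difference 1.69, limma adjusted p = 6.32e-07). Loxl1 (0.544 to 1.52 FPKM, log2 difference 0.71) and Loxl2 (0.535 to 1.51 FPKM, 0.70), which encode enzymes that cross-link elastin and collagen, also rose. At these levels the scale with 1 added understates the fold. Egfr, a receptor that decorin can bind, fell from 42.0 to 11.1 FPKM (log2 difference -1.76, limma adjusted p = 0.00105), and the heparan sulfate proteoglycan genes Sdc4 (-0.78) and Sdc2 (-0.71) and the endocytic receptor gene Lrp1 (-0.59) fell as well. In HYA-treated against control mice 2 of the 23 passed, beside 2.8% of all tested genes: Lrp1 rose from 56.1 to 69.3 FPKM (log2 difference 0.30, SE 0.06, limma adjusted p = 0.0355) and Tgm2, the tissue transglutaminase gene, fell from 69.3 to 45.9 FPKM (log2 difference -0.58, SE 0.13, limma adjusted p = 0.0440). Neither call was kept without control mouse 1 or 3 or without any 1 HYA-treated mouse. In those fits 0 to 84 of the 11083 tested genes were called, against 310 with all mice.

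Markers of cell types that the liver can hold are given beside these differences. The summed level of 10 stellate cell markers was 41.9 to 51.8 FPKM in ND-fed mice, 69.6 to 88.9 in control mice, 64.3 to 74.8 after HYA and 77.8 to 94.8 FPKM after LA, and none of the 10 was at 0 in any mouse. In control over ND-fed mice 4 of the 9 tested stellate markers rose, among them Rgs5 (log2 difference 0.98) and Pdgfrb (0.80), while Des (0.10, limma adjusted p = 0.394) did not pass; in HYA-treated against control mice 0 of the 9 passed with limma, with a median of -0.18, and the log2 differences of Lrat (0.17) and Reln (0.09) were above 0. The stellate sums of HYA-treated and control mice overlapped. The 5 smooth muscle and myofibroblast markers summed to 3.78 to 5.34 FPKM in ND-fed mice, 11.1 to 11.9 in control mice, 6.91 to 8.44 after HYA and 8.05 to 14.5 FPKM after LA. Acta2 (log2 difference 0.97) and Tagln (1.19), the 2 tested and most of these sums, both rose in control over ND-fed mice. In HYA-treated against control mice neither Tagln (-0.60, limma adjusted p = 0.0761) nor Acta2 (-0.46, limma adjusted p = 0.234) passed. From control to HYA means, Actg2 (0.191 to 0.334 FPKM) and Cnn1 (0.0983 to 0.1085 FPKM) were higher, and Myh11 (0.5606 to 0.5425 FPKM) was slightly lower. Portal fibroblast markers were low, at 1.41 to 2.62 FPKM in sum in ND-fed mice and 2.76 to 4.20 FPKM in control mice, with Clec3b at 0 in 4 mice and Gli1 at 0 in 2. Most of this sum was Entpd2, the 1 tested, which rose in control over ND-fed mice (1.272 to 2.149 FPKM, limma adjusted p = 0.0400). Among the markers under the filter, Thy1 was lower by group means (0.555 to 0.5015 FPKM), and Gli1, Cd34, Clec3b and Pi16 were higher. On the FPKM scale all 5 hepatocyte markers fell in control against ND-fed mice, with a median of -0.42, beside -0.73 for Vtn and -0.32 for Fn1, and 1 of the 5 rose in HYA-treated against control mice. The smallest fall, that of Apob (-0.18), was of a size that depends on the scale chosen. Of the other lists, 3 of 8 endothelial markers rose in control against ND-fed mice, among them Lyve1 (log2 difference 1.37) and Pecam1 (0.48). Of 7 tested Kupffer cell and macrophage markers 1 rose, Cd68 (1.07), and 2 fell, Marco (-1.98) and Timd4 (-0.89). Pf4 (1.14), the 1 tested platelet marker, rose. Platelet markers under the filter differed in direction from ND to control means. Gp9 (0.225 to 0.0177 FPKM) and Itga2b (0.518 to 0.463 FPKM) were lower and Ppbp (0.213 to 0.404 FPKM) was higher. Of 2 tested cholangiocyte markers Epcam rose in control against ND-fed mice (0.81) and fell in HYA-treated against control mice (log2 difference -0.84, limma adjusted p = 0.0357). These counts stand beside 16.2% higher and 19.1% lower among all tested genes for control against ND. For HYA against control they stand beside 2.8% called in either direction, a share at which lists this short would hold few calls or 0. The part of cell type shares in the members' differences was not tested.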

How the data were processed

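Liver RNA of 12 mice was sequenced from both ends on the Illumina HiSeq platform. The submitters' processing notes name fastp, HISAT2 2.0.5, featureCounts 1.5.0-p3 and GRCm38. The authors deposited FPKM values, 1 column a mouse. Their methods name TPM, but the column sums differ (342146 to 429286). Coordinates of 53585 of 54495 shared gene identifiers (98.33%), all 10 members included, equal GENCODE M21. Values times gene length were whole multiples of 1 step per column (100% within 0.05), which gave fragments per gene.

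The fit was limma 3.58.1 in R 4.3.3 on log2(FPKM + 1), all mice in 1 model, trended empirical Bayes, two-sided, for genes averaging 1 FPKM or more across the 12 mice. A gene was called at a Benjamini-Hochberg adjusted p under 0.05. Voom used genes with a mean of at least 10 fragments. The fit was tested on simulated data. Groups came from the sample titles.

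Alternatives were a pseudocount of 0.1, no filter, a filter of 5 FPKM, TPM, median-ratio size factors, voom, a 2-group fit, a replicate block, an absolute log2 above 1, and leaving out each mouse. From each list up to 4 genes per direction with the largest called difference were named, in control against ND and HYA against control, and for each member the 2 genes of highest Pearson's r, clone names left out. Some genes that this rule names are not reported here. Genes named beyond this rule (Podn, Omd, Prelp, Tsku, the cell type markers) were chosen after their values were seen or as fixed markers. The members and lists were chosen with earlier results of these data known. Promoter windows were read from RefSeq (GRCm38.p6). Figures were drawn with matplotlib from these results.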

Additional observations from a re-analysis of the deposited data

How the results depend on the processing

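Under the settings that kept all 12 mice, 428 member differences kept their direction and side of the threshold, 13 became significant, 8 lost significance and 1 reversed. Leaving out 1 mouse, 322 did so, 3 became significant, 15 lost significance and 20 reversed. The reversal with all mice was Fn1 in HYA against LA, at -0.034 with TPM. The causes were not tested.

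Among the 8 tested members, the count with an absolute log2 above 1 on the scale with 1 added was 2 for control against ND. It was 0 for HYA against ND and 2 for LA against ND. In HYA against control the members' count at an adjusted p under 0.05 was 0 without a filter and in the 2-group fit (and 0 with an absolute log2 above 1), 2 with a filter of 5 FPKM, TPM or voom, and 0 to 3 when 1 mouse was left out. In HYA against LA the count at an adjusted p under 0.05 was 1 in the 2-group fit (Lum). With voom the 1 call was Fbn1, which is not among the 8. The other matrix list had 39 calls without a filter, 11 with 5 FPKM and 45 with voom in control against ND, settings that change how many genes are tested. In HYA against control it had 1 with a pseudocount of 0.1, 0 without a filter or in the 2-group fit, 5 with TPM, 8 with voom and 0 to 4 without 1 mouse, and in HYA against LA 2 with 5 FPKM and 4 with TPM or voom. The glycosaminoglycan list had in HYA against control 1 without a filter, 6 with TPM, 4 with voom, 0 in the 2-group fit and 0 to 3 without 1 mouse, and in HYA against LA 0 without a filter and 0 without any 1 mouse. The receptor list had 10 with 5 FPKM in control against ND, 0 without a filter or in the 2-group fit and 0 to 2 without 1 mouse in HYA against control, and 1 with 5 FPKM, voom or the 2-group fit and 2 with TPM in HYA against LA. Calls among all tested genes moved with these settings too. In control against ND they were 4202 of 26045 without a filter, 2505 of 5763 with 5 FPKM and 4782 of 14353 with voom. In HYA against control they were 259 with a pseudocount of 0.1, 105 without a filter, 355 with 5 FPKM and 497 with TPM. They were 511 with voom, 0 in the 2-group fit and 0 to 653 without 1 mouse. In HYA against LA they were 0 without a filter, 165 with 5 FPKM or TPM, 224 with voom and 94 in the 2-group fit.

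Leaving out 1 mouse, the reversals were in differences near 0. For LA against control the log2 differences ran from -0.13 to 0.060 for Bgn, -0.052 to 0.075 for Dcn, -0.20 to 0.069 for Lum, -0.11 to 0.019 for Vtn, -0.052 to 0.17 for Fbn1, -0.12 to 0.036 for Fbln5, -0.16 to 0.055 for Sparc and -0.094 to 0.28 for Thbs1, and for HYA against control from -0.14 to 0.016 for Efemp1.

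Replicate numbers did not pair the mice: 18 pairs with the same number had r from -0.396 to 0.294, 3 of them over 0.1. With the replicate block, HYA against control had 2 member calls (Lum and Sparc) and 449 genes in all, and 5 other matrix genes passed. HYA against LA then had 2 members, 3 other matrix genes and 2 receptor genes, and 258 genes in all. Low fragment counts limit Thbs1 (13 to 29 per ND-fed mouse) and Fbn1 (56 to 358).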
